A study of Homo sapiens with 2 samples.

Results

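Notch signalling genes were followed through brain organoids by split-seq, a method that labels RNA in intact cells or nuclei over rounds of barcoding, and 10 of the 62704 genes counted are described. They were the receptors NOTCH1, NOTCH2 and NOTCH3, the ligands DLL1, DLL3 and JAG1, the target genes HES1, HES5 and HEY1, and the co-activator MAML2. The genes were chosen by name for their place in the pathway, with earlier results of these data known. Each was found once in both libraries, one of 20178 kept cells and one of 14228 kept nuclei. Notch signalling passes between neighbouring cells. A ligand on one cell binds a receptor on the next, the receptor is cut, and its inner part enters the nucleus, where it joins the DNA-binding protein RBPJ and a Mastermind co-activator and switches on HES and HEY genes. In the developing cortex the HES repressors hold radial glia, the neural progenitors, back from differentiation, while cells that begin to differentiate carry ligand and signal to their neighbours.

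The organoids were grown from H9, an established human embryonic stem cell line. The cell library pooled control cerebral organoids (CO) of days 45, 55 and 70, dissociated and reaggregated organoids (DISS, taken apart at day 45 and sampled at days 48, 55 and 70), and constrained organoids (CONS, moved at day 13 from Matrigel into 3% agarose and sampled at day 55). The nuclei library was titled a control experiment, although its treatment label also listed dissociated and embedded organoids, and it was mapped here to day 45. The paper describes its split-seq nuclei as taken from frozen whole CO or from dissociated CO, both of day 45. All organoids came from 1 cell line, and CONS differed from CO in the matrix around the organoid. The deposited tables gave every barcode of a library the same sample name, so no barcode could be assigned to a condition, a day or an organoid. Each library was therefore 1 sample. The genes were compared between kinds of barcode within a library, without p-values, and the 95% intervals given below cover counting error only.

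Barcodes entered the comparisons if they passed 500 genes and 1000 transcripts (counted by molecular identifier) and if mitochondrial genes made up no more than 20% of them. Kept cells had a median of 2615 transcripts (quartiles 1427 and 7223.75) and kept nuclei a median of 3890 (2275 and 6191.25). Cells came from 48 first-round barcoding wells and 8 sub-libraries, and nuclei from 12 wells and 2 sub-libraries. Between the libraries, 70784 barcode names were shared, 99 of them among kept barcodes. Scrublet called 0 doublets in either library and so gave no usable doublet call.

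Kept barcodes were classed by markers after each was thinned to 1000 transcripts. A progenitor-marker barcode showed at least 3 of 10 radial glia markers (among them GLI3, SOX2 and HMGA2) and at most 1 of 10 neuron markers, a neuron-marker barcode the opposite, and an intermediate progenitor-marker barcode at least 2 of 8 markers such as EOMES and NEUROG2. These rules gave 4932 progenitor-marker, 388 intermediate progenitor-marker and 2088 neuron-marker cells, and 4763, 73 and 2103 nuclei. The remaining 12770 cells and 7289 nuclei stayed unassigned. Most classed barcodes lay on the limit, namely 3462 of the progenitor, 358 of the intermediate progenitor and 1749 of the neuron-marker cells, and 3074, 67 and 1626 of the nuclei. Median depths were 3047.5, 3102 and 3924 transcripts in cells and 3857, 3492 and 4210 in nuclei.

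Since the lists chose the classes, the marker levels that follow describe the classes and are no check of their names. The 10 radial glia markers summed to 52.0 transcripts per 10000 in progenitor-marker cells and 16.7 in neuron-marker cells, and the 10 neuron markers to 9.72 and 43.3. PTPRZ1 did not separate them, at 7.59 in progenitor-marker and 7.70 in neuron-marker cells. Intermediate progenitor-marker cells held both programs, with radial glia markers at 30.2, neuron markers at 26.4 and intermediate progenitor markers at 9.92, against 2.10 and 1.81 for the last list in progenitor- and neuron-marker cells. EOMES stood at 2.20 per 10000 in this class and at 0.146 in progenitor-marker cells. Of that list RASGRP1 was also found in progenitor-marker barcodes, at 1.17 in cells and 1.39 in nuclei. The 8 dividing-cell markers summed to 17.4 in progenitor-marker and 3.47 in neuron-marker cells, and the 8 choroid plexus markers to 11.9 and 6.04, so both moved with the progenitor class, with no marker of either list at 0. In nuclei the dividing list summed to 14.75 and 0.954 and the choroid plexus list to 4.09 and 3.78, with 1 of its 8 markers at 0 in each. Their part in the ratios below was not tested. Astrocyte, oligodendrocyte and microglia lists summed to at most 0.0981 per 10000 in these 3 classes of cells.

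Levels below are transcripts of a gene per 10000 transcripts of the summed class, and they are compared between barcodes, not between genes. The background level is the same quantity in barcodes of 10 to 100 transcripts, which hold mostly free RNA and fragments of all cell types. Where background was subtracted, it was taken as a fixed share of each class's transcripts, spread over genes as in these barcodes. That share was assumed and not estimated from the data.

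Across the pathway, 7 of the 10 genes were at least 2-fold higher in progenitor- than in neuron-marker cells, where 7.37% of the 18906 genes with at least 100 transcripts were. The same 7 genes, NOTCH1, NOTCH2, NOTCH3, JAG1, HES1, HES5 and HEY1, passed that limit in nuclei, where 16.3% of 14316 genes did. In the other direction none of the 10 passed in cells (4.94% of all genes), and DLL3 did in nuclei (10.4%). Larger ratios in nuclei were thus common to many genes. Of the 7, only NOTCH1 ranked higher in nuclei, above 98.0% of all genes tested and 97.0% in cells. HEY1 ranked above 98.3% in cells and 87.3% in nuclei. The median log2 ratio of the 10 genes was 1.83 in cells and 2.72 in nuclei, beside 0.03 and 0.20 over all genes tested. Since the 10 were chosen with earlier results of these data known, the shares over all genes are context and no test.

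**Figure D1:**
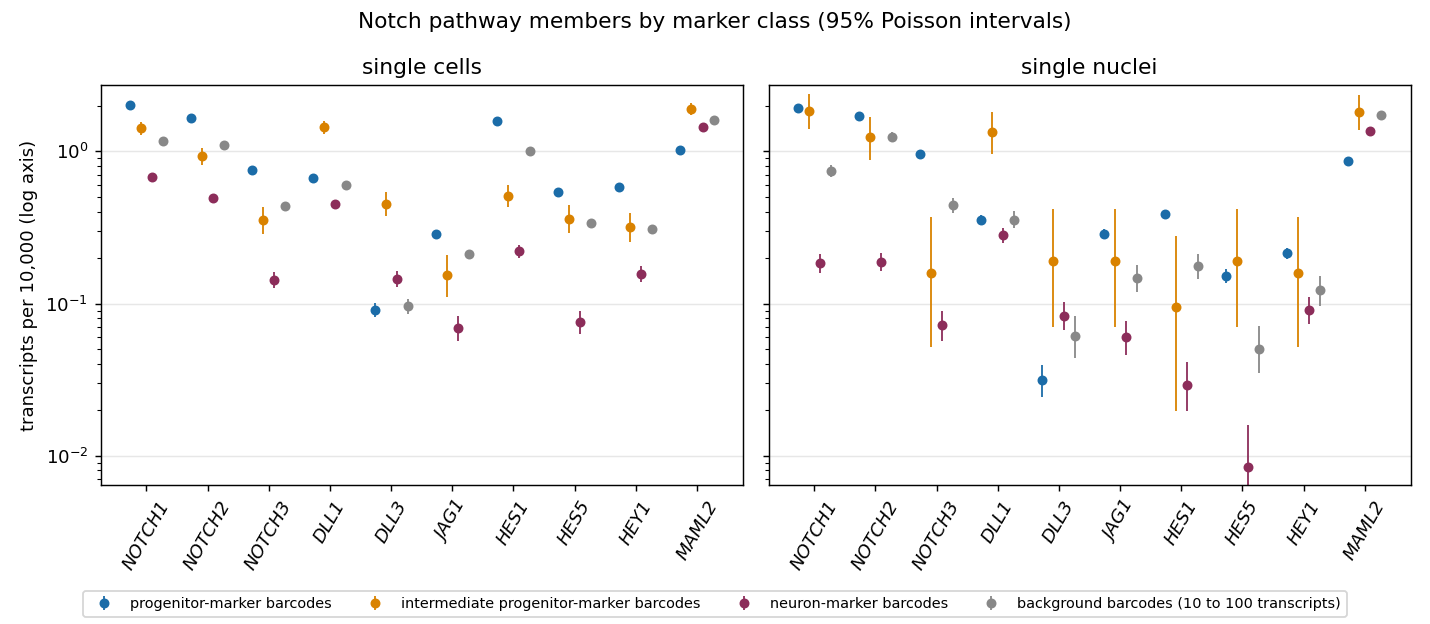
Transcripts per 10000 (log axis) of the 10 genes in progenitor-, intermediate progenitor- and neuron-marker barcodes and in background barcodes, for cells (left) and nuclei (right), with 95% Poisson intervals. HES1 lay at 1.59 in progenitor-marker and 0.220 in neuron-marker cells, while DLL1 and DLL3 were highest in intermediate progenitor-marker barcodes of both libraries.

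The receptors are given first. NOTCH1, a receptor that radial glia are known to carry, lies at chr9:136494433-136546048 on the minus strand of GRCh38. It reached 2.03 transcripts per 10000 in progenitor-marker cells (95% interval 1.99 to 2.08), 1.42 in intermediate progenitor-marker cells and 0.679 in neuron-marker cells, with a background of 1.17. Progenitor-marker cells were thus 2.99-fold above neuron-marker cells (log2 1.58, 1.49 to 1.67). In the 25 wells with at least 100000 transcripts in both classes, NOTCH1 ran from 0.770 to 4.58 (median 1.96) in progenitor-marker cells and from 0 to 1.299 (median 0.565) in neuron-marker cells. The 2 ranges overlapped, but the progenitor value was the higher one in 25 of 25 wells. In nuclei the contrast was wider, 1.93 against 0.184, a 10.45-fold ratio (log2 3.39), and held in 12 of 12 wells without overlap of the ranges. Its nuclear log2 ratio ran from 2.72 to 5.67 over the other settings, the highest with background subtracted.

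NOTCH2 (chr1:119911553-120100779, minus strand) and NOTCH3 (chr19:15159038-15200995, minus strand), the other receptors, kept the same order of classes. NOTCH2 stood at 1.65 in progenitor-marker and 0.491 in neuron-marker cells, a 3.37-fold ratio (log2 1.75, 1.65 to 1.86), with a background of 1.11. The nuclear levels of NOTCH2 were 1.72 and 0.188 (log2 3.19). Near-identical NOTCH2NL copies exist, and reads of NOTCH2 and of these copies may have been exchanged in counting. NOTCH3 was at 0.757 against 0.143 in cells (5.28-fold, log2 2.40, 2.21 to 2.59) and 0.968 against 0.0720 in nuclei (13.45-fold, log2 3.75, 3.42 to 4.10). As counted these were the widest contrasts of the receptors, but clear of counting error in cells only. In nuclei the NOTCH3 interval overlapped that of NOTCH1 (log2 3.18 to 3.60). With background subtracted, the nuclear log2 ratio was 11.62 for NOTCH2 and 10.88 for NOTCH3. No neuron transcripts of either were left there, so these values were set by the 0.5 transcript added and do not order the receptors. Both receptors were higher in progenitor-marker barcodes in 25 of 25 wells of cells and 12 of 12 wells of nuclei.

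Between sub-libraries, which are technical repeats, the progenitor level of NOTCH1 was 2.03 ± 0.0883 (SD, n = 8) and its neuron level 0.680 ± 0.126. For NOTCH3 these values were 0.750 ± 0.0841 and 0.140 ± 0.0328. Sub-libraries were drawn from 1 pool, so this spread leaves out that between wells.

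Among the ligands only JAG1 followed the receptors. JAG1, a Jagged-type ligand at chr20:10637684-10673999 on the minus strand, was at 0.288 in progenitor-marker and 0.0688 in neuron-marker cells (4.18-fold, log2 2.06, 1.79 to 2.35), beside a background of 0.210. In nuclei it was at 0.288 and 0.0598 (log2 2.27, 1.89 to 2.66). JAG1 was higher in progenitor-marker barcodes in 23 of 25 wells of cells and 12 of 12 of nuclei.

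DLL1, the Delta-type ligand of cells that begin to differentiate, lies at chr6:170282206-170306565 on the minus strand. It stood at 0.673 in progenitor-marker cells, 0.449 in neuron-marker cells and 0.600 in the background, so the progenitor level lay 1.5-fold above the neuron level (log2 0.58, 0.47 to 0.70) and close to the background. In wells DLL1 ran from 0 to 1.48 (median 0.562) in progenitor-marker cells and from 0.187 to 1.13 (median 0.391) in neuron-marker cells, higher in progenitors in 21 of 25 wells. In nuclei the levels were 0.356 and 0.281 (log2 0.35), and with classes taken from clusters in place of single barcodes the sign turned, to -0.35.

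DLL3, a divergent Delta protein that sits mostly in the Golgi and does not activate receptors on other cells, leaned the other way. Its level was 0.0902 in progenitor-marker and 0.146 in neuron-marker cells (1.62-fold higher in neurons, log2 -0.69, -0.93 to -0.45). In nuclei it was 0.0312 against 0.0832, a 2.66-fold difference (log2 -1.41, -1.88 to -0.95; -3.76 to -1.28 over the other settings). It was lower in progenitors in 19 of 25 wells of cells and 10 of 12 of nuclei. DLL3 lies at chr19:39498895-39508481 on the plus strand and overlapped no other annotated gene.

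The HES targets came next, HES1 and HES5 with the largest ratios of the 10 genes in cells as counted. In nuclei the intervals of HES5, NOTCH3 and HES1 overlapped. With background subtracted at the assumed share, no transcripts of these genes or of NOTCH2 remained in neuron-marker nuclei. Those nuclear ratios were set by the 0.5 transcript added, so they do not rank the genes. HES1 encodes a repressor of proneural genes and lies at chr3:194136148-194138732 on the plus strand. It was at 1.59 in progenitor-marker cells (1.55 to 1.63) and 0.220 in neuron-marker cells (0.199 to 0.244), a 7.23-fold ratio (log2 2.85, 2.70 to 3.01), with a background of 1.00. After thinning to 1000 transcripts, 14.9% of progenitor-marker cells held a HES1 transcript (13.9 to 16.0, exact binomial interval) against 2.20% of neuron-marker cells (1.62 to 2.93). Without thinning these shares were 40.02% and 9.48%. In nuclei HES1 was far sparser, at 0.386 and 0.0290, yet the ratio was 13.3-fold (log2 3.73, 3.22 to 4.30). With background subtracted the log2 ratio of HES1 was 6.11 in cells and 9.55 in nuclei, so its size depended on that choice. HES1 was higher in progenitors in 25 of 25 and 12 of 12 wells, from 0.265 to 3.21 (median 1.00) in progenitor-marker cells and from 0 to 0.980 (median 0.154) in neuron-marker cells. The nuclear ranges, 0.189 to 0.701 and 0 to 0.0644, did not overlap.

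HES5, the second HES repressor of radial glia (chr1:2528745-2530263, minus strand), was at 0.541 and 0.0758 in progenitor- and neuron-marker cells (7.14-fold, log2 2.84, 2.58 to 3.10) and at 0.152 and 0.00841 in nuclei (18.1-fold, log2 4.18, 3.24 to 5.32). The nuclear neuron value rested on 9 transcripts, and the nuclear log2 ratio ran from 2.74 to 8.25 over the other settings. The highest value was with background subtracted, which left no neuron transcripts. HES5 was likewise higher in progenitors in every one of the 25 and 12 wells. HEY1, a related repressor, was at 0.586 and 0.156 in cells (3.75-fold, log2 1.91, 1.72 to 2.09). In nuclei its levels were 0.214 and 0.0907 (log2 1.24, 0.92 to 1.57), and the median over wells of its nuclear log2 ratio was lower, 0.72. It was higher in progenitors in 23 of 25 wells of cells and 11 of 12 of nuclei.

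**Figure D2:**
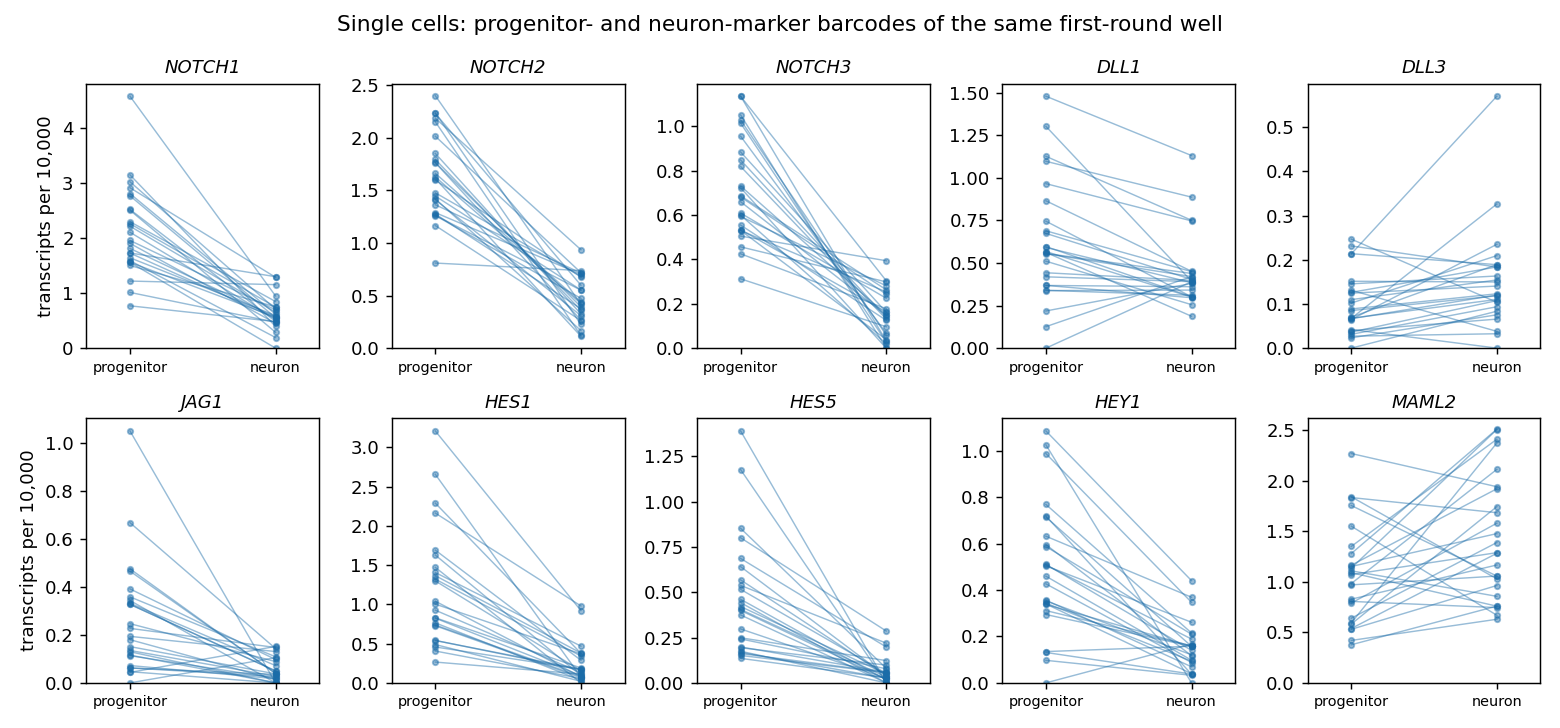
Transcripts per 10000 of each gene in progenitor-marker (left) and neuron-marker (right) cells of the same first-round well, 1 line per well, for the 25 wells with at least 100000 transcripts in both classes, with linear axes from 0. All 25 lines fall for NOTCH1, NOTCH2, NOTCH3, HES1 and HES5, while 19 of 25 rise for DLL3 and 17 of 25 for MAML2.

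The upstream sequences of HES1 and HES5 are shown because these targets gave the largest ratios in cells and are classical sites of RBPJ binding. They are the 250 bases before the annotated start in RefSeq, build GRCh38.p14, written 5′ to 3′ on the gene's strand, with each match to GTGGGAA on either strand in capitals. The first lies at chr3:194135898-194136147 (plus strand) and the second at chr1:2530264-2530513 (minus strand).
HES1: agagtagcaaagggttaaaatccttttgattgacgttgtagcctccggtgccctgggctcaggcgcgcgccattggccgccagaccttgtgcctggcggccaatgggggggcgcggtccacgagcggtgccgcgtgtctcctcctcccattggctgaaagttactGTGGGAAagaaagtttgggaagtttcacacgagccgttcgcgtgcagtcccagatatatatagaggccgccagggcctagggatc
HES5: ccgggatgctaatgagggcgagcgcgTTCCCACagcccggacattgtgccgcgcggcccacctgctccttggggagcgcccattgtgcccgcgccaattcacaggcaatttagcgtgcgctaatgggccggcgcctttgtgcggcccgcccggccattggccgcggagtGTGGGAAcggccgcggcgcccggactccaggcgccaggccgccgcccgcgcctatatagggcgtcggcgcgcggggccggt
HES1 held 1 match, beginning 85 bases before the start. HES5 held 2, beginning 224 and 81 bases before it, the farther one on the opposite strand. Of 35116 promoters of that length in the table, 5.43% held at least 1 match and 0.174% at least 2. The table had entries for 7 of the 10 genes, and NOTCH1, NOTCH2, NOTCH3, JAG1 and MAML2 held 0 matches in this window. A match describes letters only, and no binding was measured here.

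MAML2, a Mastermind co-activator spanning chr11:95976598-96343195 on the minus strand, did not follow the targets. It was at 1.02 in progenitor-marker and 1.44 in neuron-marker cells (1.41-fold higher in neurons, log2 -0.50, -0.57 to -0.43) and at 0.866 and 1.35 in nuclei (log2 -0.64, -0.74 to -0.55). Over the other settings its log2 ratio ran from -0.74 to -0.11 in cells and from -0.96 to -0.53 in nuclei. MAML2 was lower in progenitors in 17 of 25 wells of cells and 11 of 12 of nuclei, and the ranges over wells overlapped in both libraries. All class levels of MAML2 in cells except the intermediate progenitor level of 1.90 lay below its background of 1.62.

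Some of these genes share their locus with others. DLL1 overlaps the protein-coding gene FAM120B on the opposite strand, and NOTCH1, NOTCH2, JAG1, HES5 and MAML2 each overlap a long noncoding RNA on the opposite strand. Whether the counting used strand is not given in the sources used here, so reads of such partners may not have been told apart.

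Intermediate progenitors are the daughters of radial glia that go on to make neurons. Barcodes with their markers had more DLL1 and DLL3 and less NOTCH3 and HES1 than progenitor-marker barcodes in both libraries. Mixtures of progenitors and neurons could not be set apart from this class, as no doublet call was usable. Of the 10 genes, 2 were at least 2-fold higher in intermediate progenitor- than in progenitor-marker cells, DLL1 and DLL3, where 2.81% of all genes were. In nuclei 3 passed, DLL1, DLL3 and MAML2, where 9.51% of all genes did. In the other direction NOTCH3 and HES1 passed in both libraries, with 6.55% of all genes in cells and 14.7% in nuclei. NOTCH3 in cells was short of 2-fold with thinned counts (log2 -0.76), as the median over wells (-0.93) and without sub-library 8 (-0.93), but at -2.44 with classes from clusters, and HES1 in nuclei was short of it with 1 more marker (-0.22). The nuclear class held 73 barcodes only, and NOTCH3, DLL3, JAG1, HES1, HES5 and HEY1 had 3 to 6 transcripts each in it, so the nuclear ratios of these 6 genes are loose.

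The median log2 ratio of the 10 genes was -0.70 in cells and -0.17 in nuclei, beside -0.07 and -0.05 over all genes tested.

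DLL1 rested on 382 transcripts in intermediate progenitor-marker cells and stood at 1.44 (1.299 to 1.59) against 0.673, a 2.14-fold ratio (log2 1.10, 0.94 to 1.25). In nuclei it was at 1.34 against 0.356 (3.75-fold, log2 1.91, 1.42 to 2.36). Over 10 wells of cells DLL1 ran from 0.194 to 2.80 (median 1.04) in intermediate progenitors and from 0.368 to 1.13 (median 0.635) in progenitors, higher in 7 of 10 wells. The ranges overlapped, and 18.8% of the intermediate progenitor-marker cells came from 1 well. The deepest barcode of this class held 6.92% of its transcripts in cells and 4.88% in nuclei. The log2 ratio of DLL1 in cells ran from 0.92 to 1.503 over the other settings. It was below the 2-fold limit with thinned counts (0.92), 1 more marker (0.93), the median over wells (0.98) and without sub-library 4 (0.97).

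DLL3 had the highest ratio of the 10 genes in this contrast, at 0.452 (0.375 to 0.541) against 0.0902 in progenitor-marker cells, a 5.01-fold ratio (log2 2.33, 2.01 to 2.63). It was higher in 9 of 10 wells. In nuclei the ratio was 6.11-fold (log2 2.61, 1.12 to 3.80) on 6 transcripts. The intermediate progenitor level of DLL3 in cells also exceeded its neuron level of 0.146 and its background of 0.0961.

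HES1 was 3.11-fold lower in intermediate progenitor- than in progenitor-marker cells, at 0.512 (log2 -1.64, -1.89 to -1.39; -3.62 with classes from clusters), lower in 9 of 10 wells, and 4.04-fold lower in nuclei on 3 transcripts (log2 -2.01, -4.29 to -0.46). HES5 kept more of its level, at 0.362 against 0.541 (log2 -0.58, -0.89 to -0.29). It was lower in 6 of 10 wells, and the log2 ratio ran from -1.31 to -0.23 over the other settings. The HES5 value in nuclei was not resolved (log2 0.33, -1.13 to 1.46). NOTCH3 was 2.14-fold lower in cells (log2 -1.10, -1.41 to -0.80), while NOTCH1 was 1.43-fold lower (log2 -0.52, -0.67 to -0.37; -0.06, -0.46 to 0.31 in nuclei) and NOTCH2 1.78-fold lower (log2 -0.83). JAG1 and HEY1 lay between, at log2 -0.90 and -0.89. MAML2 was higher in intermediate progenitors by log2 0.89 (0.76 to 1.03) in cells and 1.07 (0.66 to 1.45) in nuclei, the latter turning to -0.77 with classes from clusters. In cells its log2 ratio ran from 0.44 to 1.97 over the other settings.

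**Figure D3:**
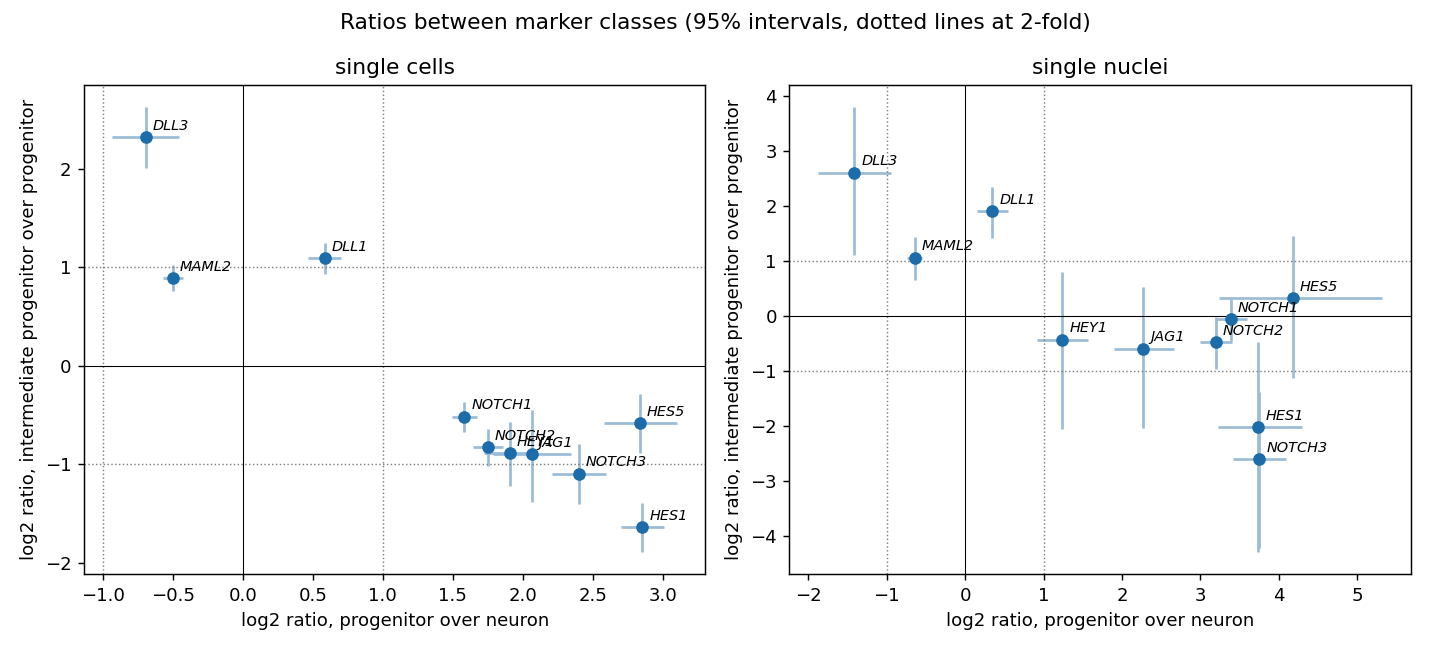
Log2 ratio between progenitor- and neuron-marker barcodes (horizontal) against log2 ratio between intermediate progenitor- and progenitor-marker barcodes (vertical) for the 10 genes in cells (left) and nuclei (right), with 95% counting intervals and dotted lines at 2-fold. DLL1, DLL3 and MAML2 lie above 0 on the vertical axis in both libraries, and HES1 and NOTCH3 lie at or below -1.10.

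Levels were next read in Leiden clusters, which were made without these genes, the wider pathway list and the class markers. Clusters were named from the fixed marker lists (a cluster with a name is called progenitor-like and so on), and those with at least 50 barcodes numbered 22 in cells and 19 in nuclei. The order of levels within a library is a description.

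DLL1 peaked in the intermediate progenitor-like cluster of each library, at 1.78 (1.68 to 1.89) in 783 cells and 2.44 (2.24 to 2.65) in 508 nuclei. Both intervals stayed clear of the next cluster, at 1.21 and 1.24. EOMES was among the leading genes of both clusters. DLL3 peaked in the same clusters, at 0.509 (0.457 to 0.565) in cells and 0.412 (0.333 to 0.505) in nuclei. In nuclei the DLL3 value did not differ beyond counting error from that of a neuron-like cluster, 0.373 (0.310 to 0.446), which also had 4 of the 8 intermediate progenitor markers raised. The cluster after these was at 0.176.

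NOTCH1 was highest in progenitor-like clusters, 2.66 and 2.59 in cells and 2.55 in nuclei, and lowest in choroid plexus-like cells (0.255 and 0.295, the intervals overlapping that of a neuron-like cluster at 0.336) and neuron-like nuclei (0.138). NOTCH2 had another top. Its highest level in cells, 2.37, was in an unnamed cluster with all 8 choroid plexus and all 8 cortical hem markers raised, and the next, 2.20 (2.08 to 2.33), in a choroid plexus-like cluster led by genes of motile cilia, the cluster where NOTCH1 was lowest. The intervals of these 2 clusters overlapped. In nuclei NOTCH2 was highest in an unnamed cluster at 2.76 (2.62 to 2.91), followed by progenitor-like clusters at 2.38 and 2.30 and by the choroid plexus-like one at 2.24. In choroid plexus-like nuclei NOTCH1 was at 0.209, with an interval that overlapped those of the 3 lowest neuron-like clusters. NOTCH3 was highest in a dividing progenitor-like cluster of cells (1.10, 1.02 to 1.19), with an interval that overlapped the next cluster's, an unnamed one at 0.943, and at about the same level in the first 3 progenitor-like clusters of nuclei (1.15, 1.15 and 1.11, with overlapping intervals).

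HES1 peaked in a dividing progenitor-like cluster of 711 cells led by SV2C, GRIK1 and ADAMTS19, at 3.63 (3.48 to 3.79), followed by another progenitor-like cluster with SV2C and ADAMTS19 among its leading genes at 2.33 (2.23 to 2.43). The third cluster was at 1.40. In the same first cluster HEY1 also reached its peak in cells, 0.894 (0.820 to 0.973), clear of the next value of 0.631, whereas HES5 at 0.726 did not differ beyond counting error from the next 2 clusters (0.685 and 0.663).

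In nuclei HES1, HES5, HEY1 and JAG1 were all highest in 1 progenitor-like cluster of 213 nuclei with a median depth of 1702 transcripts. HES1 was at 2.14 (1.76 to 2.59) there and at 0.599 in the next cluster. HES5 was at 0.580, HEY1 at 0.560 and JAG1 at 0.721, and the intervals of HEY1 and JAG1 overlapped those of the cluster next in order. This cluster was led by ATF3, FOS and JUN among others, immediate early genes that many kinds of stimulus and stress switch on. FOS stood at 1.70 there, JUN at 3.54, EGR1 at 1.96 and ATF3 at 2.08, beside 0.0271, 0.153, 0.185 and 0.0323 in the largest progenitor-like cluster of nuclei. The next cluster for HES1 and HEY1 was led by EGR1 and had EGR1 at 2.61 and JUN at 1.03. In cells EGR1 was at 4.15 in the cluster with the HES1 peak and from 2.21 to 3.03 in the other progenitor-like clusters. FOS was also highest there among these clusters, at 1.42. JUN (1.01) and ATF3 (0.105) lay below their highest progenitor-like levels, 1.24 and 0.134. The second cluster for HES1 was lowest of the progenitor-like clusters for all 4 genes (FOS 0.532, JUN 0.462, EGR1 2.21, ATF3 0.0479). The part of these early genes in the HES1 level was not tested, and the 4 of them were picked after the clusters' leading genes were seen.

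JAG1 had an isolated peak in cells. In an unnamed cluster of 98 cells led by DCT, BMP3 and PAX3, it was at 2.40 (2.07 to 2.78), while the next cluster was at 0.411. DLL3 had 0 transcripts in that cluster, which allows a level of up to 0.0388 (3 counts), and 75.5% of its cells came from 1 well. In nuclei JAG1 was at 0.528 in the cortical hem-like cluster, whose interval (0.416 to 0.661) overlapped that of its highest cluster.

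MAML2 in nuclei was highest at 7.92 (7.46 to 8.39) in cortical hem-like and 7.36 (7.09 to 7.64) in choroid plexus-like nuclei. In cells it was at 4.14 in the choroid plexus-like cluster with cilia genes, 3.93 in the unnamed cluster with both marker lists raised and 3.82 in Cajal-Retzius-like cells, with overlapping intervals. Its lowest cluster was neuron-like in both libraries, at 0.449 in cells and 0.343 in nuclei, but the neuron-like clusters of nuclei ran up to 3.04 and the progenitor-like ones from 0.360 to 1.62. In cells the other neuron-like cluster was at 0.836, and the progenitor-like ones ran from 0.562 to 0.812. In the intermediate progenitor-like clusters MAML2 was at 2.87 in cells and 0.372 in nuclei.

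**Figure D4:**
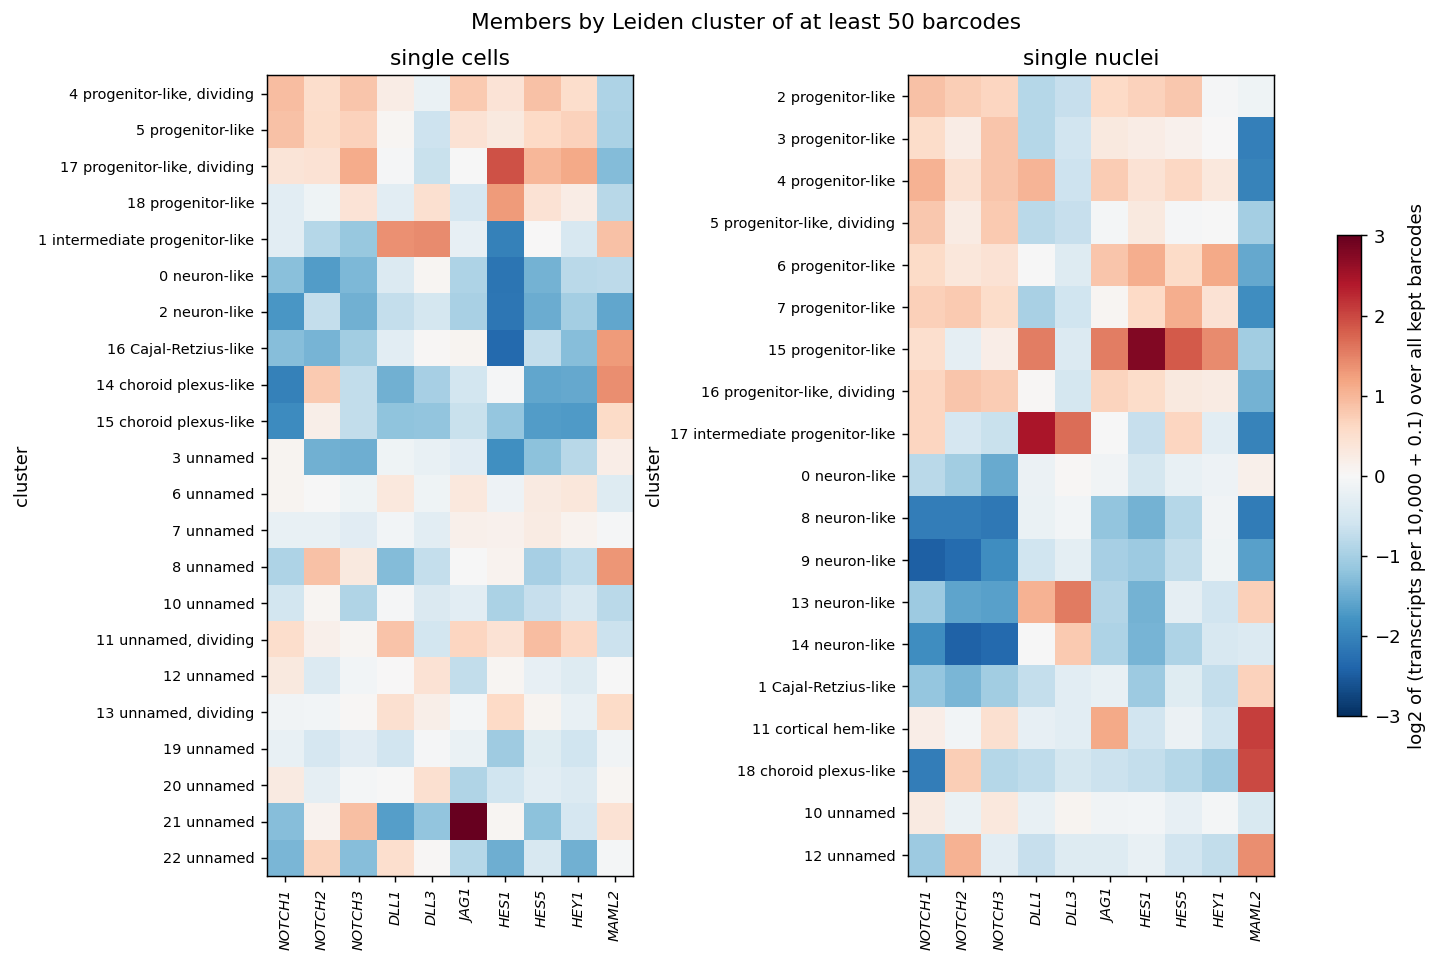
Log2 of (transcripts per 10000 + 0.1) in each cluster of at least 50 barcodes over the same in all kept barcodes, red above and blue below, for cells (left) and nuclei (right), rows grouped by cluster name. DLL1 and DLL3 are reddest in intermediate progenitor-like clusters, JAG1 in unnamed cluster 21 of cells (2.40 per 10000), and HES1 in cluster 17 of cells (3.63) and cluster 15 of nuclei (2.14).

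The balance of the HES genes changed with the kind of cluster. Of HES1 and HES5 transcripts together, HES1 made up 65.0% (62.7 to 67.1), 68.1%, 83.3% and 83.6% in the 4 progenitor-like clusters of cells and from 56.1% to 78.7% in those of nuclei. In intermediate progenitor-like clusters it made up 31.2% (26.1 to 36.5) in cells and 33.8% (22.8 to 46.3) in nuclei, below every progenitor-like cluster of its library. Shares as low were found in Cajal-Retzius-like cells, 38.6% (24.4 to 54.5), and in 1 neuron-like cluster of nuclei, 26.9% (11.6 to 47.8). In choroid plexus-like clusters it made up 95.5% (93.4 to 97.1) and 92.1% in cells, and 38 of 40 such transcripts in nuclei. These shares compare clusters and say nothing of which gene is more abundant in molecules, since length and capture differ.

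Progenitor-marker barcodes with at least 2 dividing-cell markers after thinning, 1545 cells and 1038 nuclei, were compared with those at 0 such markers, 2133 cells and 2859 nuclei. The 1254 cells and 866 nuclei with 1 marker entered neither side. HES1 was higher in dividing cells (2.02 against 1.29, log2 0.65, 0.56 to 0.73) and lower in dividing nuclei (0.350 against 0.417, log2 -0.25, -0.49 to -0.02). HES5 likewise had log2 0.38 in cells and -0.76 in nuclei, and HEY1 0.17 and -0.70. By cluster, HES1 in cells was at 3.63 and 1.23 in dividing progenitor-like clusters and at 2.33 and 1.12 in the other progenitor-like ones. The part of division in the HES1 level was not tested. The difference between the libraries was not tested, and median depth went opposite ways, 2731 dividing and 3569 other cells but 4907 and 3518 nuclei. Both sides were pooled over wells, and no comparison within wells was made. NOTCH3 was slightly higher on division in both, by log2 0.40 and 0.21. NOTCH2 was too, by log2 0.22 (0.14 to 0.30) in cells and 0.14 (0.04 to 0.25) in nuclei. DLL1 had log2 0.06 (-0.07 to 0.19) in cells and -0.25 (-0.50 to -0.02) in nuclei.

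Progenitor-marker barcodes with a DLL1 transcript after thinning numbered 315 cells and 187 nuclei. They held more NEUROG2, EOMES and HES6, genes added after values were seen, and no share over all genes was computed. JAG1 was also higher (log2 0.48 and 0.56), as was TOP2A, a dividing-cell marker (0.37, 0.26 to 0.48 in cells and 0.39, 0.14 to 0.62 in nuclei). MKI67, another such marker, had log2 0.37 in cells and 0.15 (-0.05 to 0.34) in nuclei, and the part of division in these values was not tested. The class rule allowed at most 1 intermediate progenitor marker in a thinned barcode, NEUROG2 and EOMES included. NEUROG2, a proneural factor that switches on Delta ligands, was at 0.929 against 0.361 in cells (log2 1.36, 1.16 to 1.56) and 0.431 against 0.104 in nuclei (log2 2.06). EOMES was higher by log2 1.24 and 2.90, and HES6, a HES protein that opposes HES1, by 1.34 and 1.86. All these values were pooled over wells and not compared within them, and the part of wells was not tested. Of the HES targets, HES1 was lower by a small margin in cells (log2 -0.20, -0.35 to -0.04, counting error only), although its level differed widely between wells. It was not resolved in nuclei (-0.13, -0.74 to 0.42). HES5 was higher in cells by log2 0.78 (0.58 to 0.98), with 0.57 (-0.23 to 1.27) in nuclei. DLL3 was higher by log2 3.28 in nuclei (2.42 to 4.07), on 18 transcripts, and by 0.40 in cells with an interval through 0 (-0.20 to 0.94).

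Levels in progenitor-marker barcodes differed between wells by more than counting alone gives. Barcode-to-barcode spread was not in this yardstick, and 29 cells over 100000 transcripts held 13.8% of the class's transcripts. In progenitor-marker cells of 40 wells HES1 ran from 0.265 to 5.28 per 10000, with a median of 1.39 and a variance 70.0 times that of counting alone, the largest such ratio of the 10 genes in cells. NOTCH1 ran from 0.671 to 4.58 (22.4 times) and HES5 from 0.135 to 2.37 (18.6 times). NOTCH2 varied least among the receptors, from 0.809 to 2.40 (6.08 times). In the 12 wells of nuclei HES1 ran from 0.189 to 0.701 (17.5 times) and NOTCH1 from 1.46 to 3.09 (25.6 times). Which wells held which condition or day cannot be told apart here.

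A wider list of 53 other genes of the pathway set the 10 in context. In cells 50 were counted often enough, of which 9 were at least 2-fold higher and 4 lower in progenitor- than neuron-marker barcodes, where 7.37% and 4.94% of all genes were. In nuclei 42 were, with 10 higher and 3 lower, beside 16.3% and 10.4% of all genes. The median log2 ratio of the list was 0.11 in cells and 0.32 in nuclei, nearer to all genes than the median of the 10. RBPJ, the DNA-binding partner of the cut receptor, was at 4.10 against 3.72 in cells (log2 0.14, 0.10 to 0.18) and at log2 0.33 in nuclei.

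The share of all genes passing 2-fold in both libraries was not computed, so the genes of the list that did so are named as a description. In both libraries 6 genes of that list passed 2-fold on the progenitor side. They were the targets HEY2 (log2 2.23 in cells and 3.74 in nuclei) and HES4 (1.49 and 1.46), the glycosyltransferase LFNG, which tunes how receptors answer their ligands (2.46-fold and 8.06-fold), the acetyltransferase KAT2B (1.06 and 1.66), and the human-specific NOTCH2NLA (1.88 and 2.72) and NOTCH2NLB (2.27 and 2.21), which may share reads with NOTCH2. On the neuron side 2 passed in both, the ligand JAG2 (-1.45 and -1.84) and NEURL1 (-1.06 and -3.05), a ubiquitin ligase that acts on ligands.

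Between intermediate progenitor- and progenitor-marker barcodes, 3 genes of the list were at least 2-fold higher and 7 lower in cells, and 7 higher and 3 lower in nuclei. Over all genes these shares were 2.81% and 6.55% in cells and 9.51% and 14.7% in nuclei. Past the limit in both were HES6 (log2 1.40 and 2.10) and the glycosyltransferase MFNG (1.93 and 3.42) on the higher side and NOTCH2NLA (-1.37 and -1.59, the latter with an interval through 0) on the lower. MFNG was at 0.181 against 0.0475 in cells on 48 transcripts. For this contrast too, no share of all genes past the limit in both libraries was computed.

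**Figure D5:**
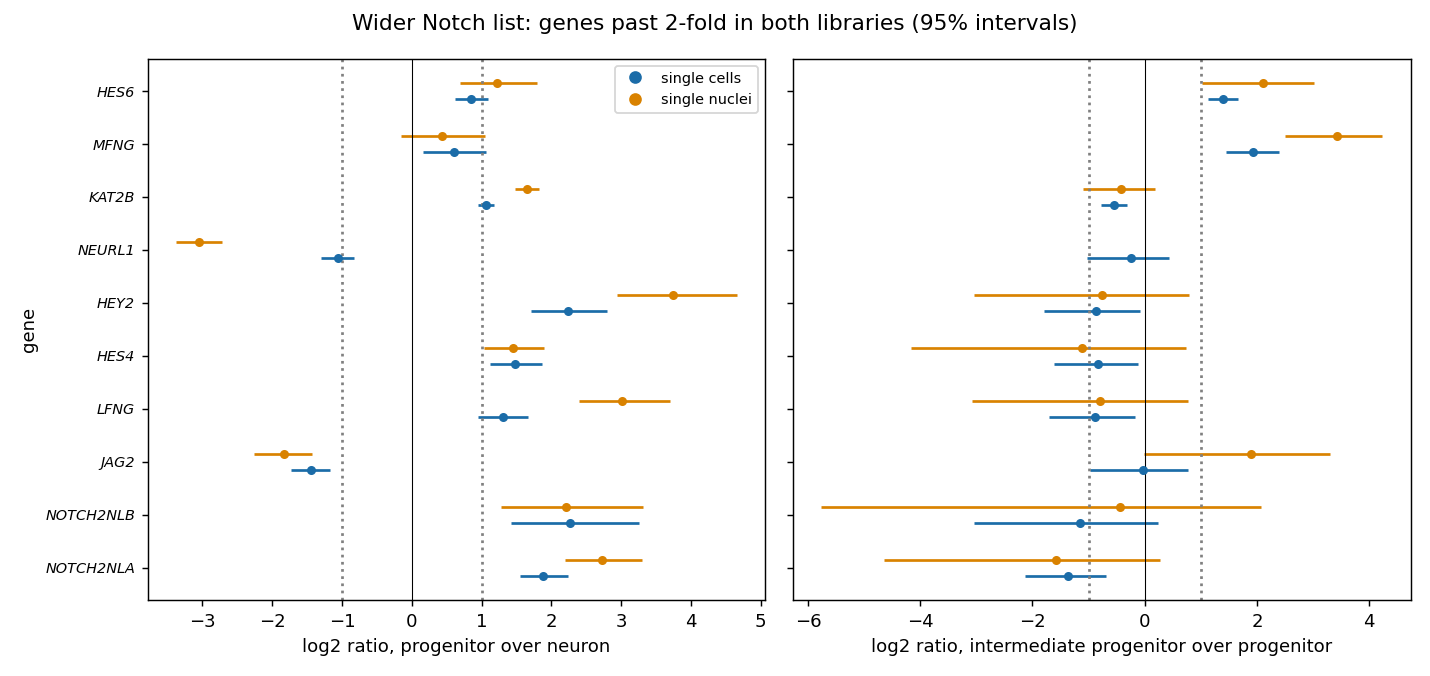
Log2 ratios of the 10 genes of the wider list past 2-fold in both libraries for either contrast, progenitor over neuron (left) and intermediate progenitor over progenitor (right), cells in blue and nuclei in orange, with 95% counting intervals and dotted lines at 2-fold. HEY2 has the highest left-hand ratio in nuclei (3.74) and MFNG the highest right-hand one (3.42). Ratios without a finite interval, as for NEURL1 in nuclei on the right, are not drawn.

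The genes most like each of the 10 over clusters were found by Pearson's r of log2(transcripts per 10000 + 0.1), over 22 clusters and 16222 genes in cells and 19 clusters and 11691 genes in nuclei. The clusters share libraries and differ in depth, so r is a description. The likest genes in cells were PSAT1 for NOTCH1 (0.907), PAWR for NOTCH2 (0.897), ARHGEF40 for NOTCH3 (0.955), HDAC2 for DLL1 (0.908), SLC22A23 for DLL3 (0.898), RNF220 for JAG1 (0.918), PLEKHG1 for HES1 (0.907), MND1 for HES5 (0.918) and ZNF219 for HEY1 (0.951). The likest genes in nuclei were ZNF551 for NOTCH1 (0.973), NBPF26 for NOTCH2 (0.975), MRC2 for NOTCH3 (0.977), PLCXD2 for DLL1 (0.882), ZNF70 for JAG1 (0.956), SOX9 for HES1 (0.975), AAMDC for HES5 (0.930), SOX3 for HEY1 (0.897) and RMST for MAML2 (0.918). Among the 10 genes, the closest to HES1 in cells was NOTCH3 (0.878), and NOTCH1 went with HES5 (0.837) and HEY1 (0.845) more than with NOTCH2 (0.0897). In nuclei HES1 was closest, of those compared, to HES5 (0.855) and had r of 0.732 with NOTCH3. There NOTCH1 had r of 0.666 with NOTCH2 and 0.886 with NOTCH3.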

How the data were processed

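Split-seq reads were demultiplexed by the authors into 8 sub-libraries of cells and 2 of nuclei and run through Parse's spipe software against GRCh38, the build named in the submitters' processing notes. The deposited values are raw counts of transcripts per barcode and gene from 62704 genes, with 254967545 transcripts in 1303455 barcodes of cells and 82339738 in 197446 barcodes of nuclei, without filtering or removal of background RNA. Columns of other samples numbered 0.

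Kept barcodes were thinned to 1000 transcripts without replacement for marker classes and shares, and all transcripts were summed per class for levels. Ratios carry exact conditional binomial intervals, levels exact Poisson intervals and shares Clopper-Pearson intervals, at 95%. PCR and barcode-to-barcode spread are outside these intervals. For calls over all genes 0.5 transcript was added to each class and 100 transcripts were required. Clusters used 2000 variable genes, 30 components, 15 neighbours and Leiden resolution 1 in scanpy 1.11.5 (igraph 0.11.9, scikit-learn 1.9.0). A cluster took the name with the largest share of its list raised 1.5-fold over other barcodes in at least 5% of the cluster, if that share reached 40%. A minimum number of markers, with 50 transcripts each, was also needed. Some lists, the dividing-cell one among them, gave no names. A cluster stayed unnamed if another list had more markers among its leading genes. Shallow clusters, and lists of cells foreign to this lineage, also needed a marker among the leading genes. Intervals were computed with scipy 1.17.1 under Python 3.11.15 (pandas 2.3.3, numpy 2.4.6) and plots with matplotlib 3.10.9, and anndata 0.12.19 held the matrices. Gene positions are from GENCODE on GRCh38 and promoters from RefSeq. Ratios were tested on simulated counts.

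The 10 genes and all lists were chosen with earlier results of these data known, the class rule after marker detection was seen, and the naming rule of clusters with levels per cluster in view. The genes named were the 10, those of the wider list past 2-fold in both libraries, and the likest genes over clusters, of which 1 result is not reported here. EGR1, FOS, JUN, ATF3, NEUROG2, EOMES, HES6 and RBPJ were added after values were seen. Alternatives changed the fold limit, depth, mitochondrial and gene limits, thinning, markers needed, classes, doublets, background, sub-libraries and weight of wells, and 3 were added after seeing the data (leaving out barcodes over 100000 transcripts, RASGRP1 or PTPRZ1). No test between conditions was run.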

Additional observations from a re-analysis of the deposited data

Results flagged for a closer look

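Barcodes over the mitochondrial limit were left out of every comparison, yet held transcripts of the 10 genes above the 3 counts that a count of 0 allows. In cells there were 410 such transcripts in 95 barcodes, with all 10 genes present, or 6.11 per 10000 beside 7.09 in kept cells. In nuclei there were 37 in 28 barcodes, with 6 of the 10 genes present, or 6.38 per 10000 beside 5.95 in kept nuclei. No cause was tested.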

How the results depend on the processing

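The count of 7 genes at least 2-fold higher in progenitor- than neuron-marker barcodes stayed within 1.5 times under every alternative run in both libraries, but the ratios themselves did not hold as closely. Over both contrasts 70 of 400 single-gene values in cells and 50 of 270 in nuclei, besides the MAML2 value given below, lay outside the 95% counting interval. With background subtracted at the assumed share, the log2 ratio of NOTCH2 between progenitor- and neuron-marker nuclei went from 3.19 to 11.62. That of NOTCH3 went from 3.74 to 10.88. These 2 nuclear values had no neuron transcripts left and were set by the 0.5 transcript added. HES5 went from 2.83 to 5.89 in cells. With a limit of 1.5-fold the count higher in neurons was 1 in cells (0 at 2-fold) and 2 in nuclei (1 at 2-fold). The count higher in intermediate progenitors in cells, 2, was 1 with thinned counts, with 1 more marker (30 barcodes) and as the median over wells, and ran from 1 to 3 with each sub-library left out, 1 without sub-library 4 and 3 without sub-library 7. The count lower in them in cells, 2, was 5 at 1.5-fold, 6 with 1 more marker, 4 with classes from clusters, 5 after background subtraction and 1 as the median over wells, and ran from 1 to 3 with each sub-library left out, 1 without sub-library 8 and 3 without sub-library 3. In nuclei that count, also 2, was 1 with 1 more marker (6 barcodes), 4 with classes from clusters, and ran from 2 to 5 with a sub-library left out, 5 without sub-library 2. The log2 ratio of MAML2 between intermediate progenitor- and progenitor-marker nuclei, 1.08 with 0.5 transcript added, turned to -0.77 with classes from clusters. Of these values 0 in cells and 12 in nuclei changed sign. The causes were not tested. The limit on genes over transcripts removed 0 barcodes, and no well of nuclei held enough intermediate progenitors for a median. No paired analysis was possible between libraries because each is 1 sample, while classes were compared within wells. The nuclear intermediate progenitor values rest on 73 barcodes.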
